A study of Anableps anableps with 8 samples.

Results

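The gene table of the adult Anableps anableps retina holds 2 rows named opn1mw1, the middle-wave cone opsin of the rh2 subfamily. These 2 genes, ENSABLG00000007592 (called copy A here) and ENSABLG00000007605 (copy B), were taken by symbol from 22934 genes and kept apart by identifier. The same table lists 3 rows of opn1lw1, 2 rows of opn1sw2 and 1 row of opn1sw1, which are the long-wave (lws), blue (sws2) and ultraviolet (sws1) cone opsins. Whole retinas of adult fish, prepared as 5 biological replicates per the study's design, were minced, and their fixed nuclei were barcoded together by rounds of wells and split into 8 technical sublibraries. The gene-level matrix holds 2 retina names in 2 sublibraries, which match no label, so retina 1 and retina 2 are given as single values. The labels name 1 group, adult whole retina, with no mutation, strain or treatment, and the title of the series asks how the ventral retina was remodelled for vision in air.

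Cone opsins are receptors of the outer segment that bind a vitamin A-derived chromophore, and the opsin a cone makes sets the wavelengths to which it responds. The rh2 opsins of fish arose from the same ancestral gene as rod rhodopsin, absorb mainly green light and have often been duplicated, so that copies tuned to different wavelengths sit in different cones or retinal regions. The ventral retina of Anableps looks up into air and the dorsal retina looks down into water. In vertebrate eyes the transcription factor VAX2 marks the ventral retina and TBX5 the dorsal retina, so these transcripts were read here as position marks, and no position was measured.

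Barcodes with at least 500 UMIs (single counted transcripts) were taken as nuclei. There were 6430, of which 3221 came from retina 1 and 3209 from retina 2, and 1609 of them fell in clusters that carried cone markers and are called cone-like. The median cone-like nucleus held 4504 UMIs. Only 99 well combinations occurred in the nuclei of both sublibraries, of 3176 in the smaller. Levels are given as CPM, the UMIs of a gene per 1e6 UMIs summed over a group of nuclei. The files give no transcript lengths, so a CPM of copy A is not set against a CPM of copy B. No sequence of either gene was used here, and the sources used here do not say how reads matching both genes were counted. Intervals are exact 95% intervals and cover counting error alone, not differences between fish. No test was made over the 2 retina names.

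Across all nuclei, copy A gave 4508 UMIs and copy B 11073. Copy A stood at 90.9 CPM in retina 1 and 74.9 CPM in retina 2, and copy B at 219 and 188 CPM. In cone-like nuclei copy A reached 205 CPM in retina 1 and 187 CPM in retina 2. Copy B reached 539 and 480 CPM there. A UMI of copy A was found in 24.1% of the cone-like nuclei (22.0 to 26.2%) and a UMI of copy B in 33.9% (31.6 to 36.2%). Each copy was therefore found in a minority of cones, at similar shares in the 2 retina names.

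The copies were rarely found in the same cone. Among 503 cone-like nuclei with at least 5 rh2 UMIs, 470 carried 1 copy alone, a share of 93.4% (90.9 to 95.4%). Of these, 129 held copy A alone and 341 copy B alone, and 22 of the 503 had between 20% and 80% of their rh2 UMIs from copy B. The share with 1 copy alone was 92.3% in retina 1 and 94.8% in retina 2. The per-nucleus counts lay along the axes of the joint map rather than on its diagonal.

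**Figure D1:**
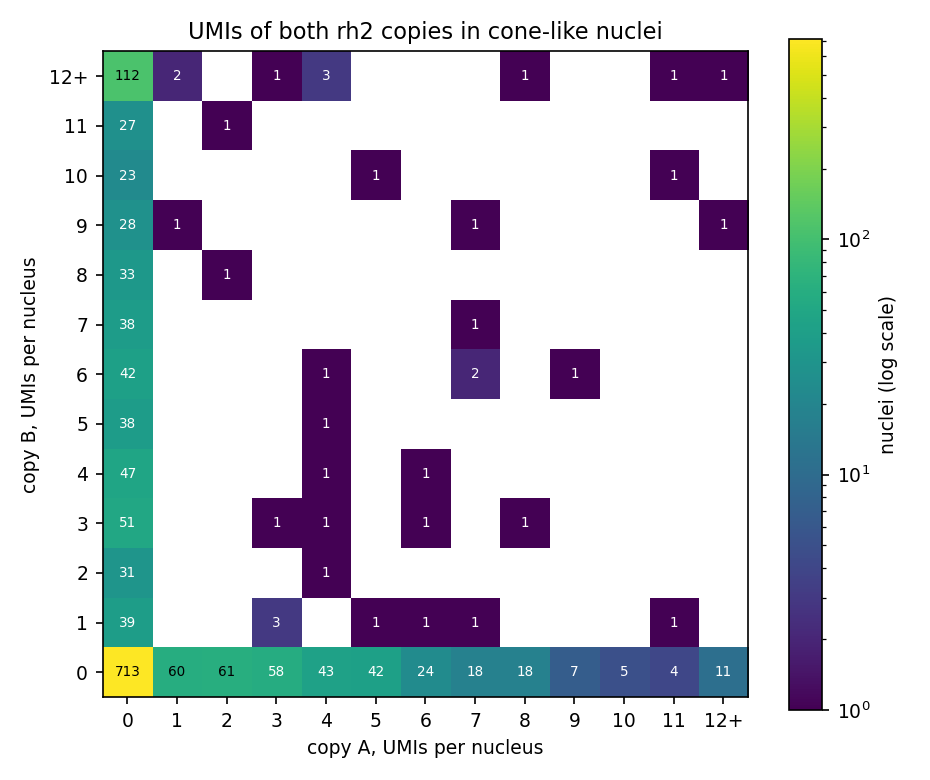
UMIs of copy A (horizontal) and copy B (vertical) in each cone-like nucleus, with the number of nuclei in each cell on a log colour scale and counts from 12 upwards pooled. Most nuclei with rh2 UMIs lie on an axis, 713 nuclei have neither copy, and 36 have both.

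For a measure that does not depend on depth, each cone-like nucleus was thinned to 2000 UMIs, which left out 92 shallower nuclei and kept 1517. Copy A was then found in 287 nuclei, copy B in 465 and both in 11, where the product of the shares gave 88.0. The log2 odds ratio was -3.81. Retina 1 had 10 such nuclei against 48.3, and retina 2 had 1 against 39.7, with log2 odds ratios of -3.04 and -5.66. Averaged over all possible draws of 2000 UMIs, 13.03 nuclei held both copies and the log2 odds ratio was -3.55. No such shortage was seen in nuclei of the inner retina, glia and pigment epithelium, where 14 of 1447 held both copies against 8.93. Retina 1 had 10 against 5.36 there and retina 2 had 4 against 3.61. The share with copy B was 16.5% (9.31 to 26.1%) in nuclei with copy A and 10.1% (8.58 to 11.9%) in those without, so the intervals overlapped.

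Exclusion was seen in cone-like nuclei of 2000 to under 10000 UMIs and not in the deepest. Of the 92 nuclei under 2000 UMIs, 0 held both copies where the product of the shares gave 2.87, too few to read. Without thinning, 1 of 841 nuclei with 2000 to under 5000 UMIs held both copies, where the product of the shares gave 64.5. Of the 565 nuclei with 5000 to under 10000 UMIs, 12 did, against 40.7. Of the 111 nuclei with at least 10000 UMIs, 23 did, against 21.2, with a log2 odds ratio of 0.38. Below 10000 UMIs, 13 of 1498 nuclei held both copies against 112, with a log2 odds ratio of -4.11. The 36 nuclei with both copies had a median of 12055 UMIs, while the 860 with 1 copy had 4406. Their median doublet score was 0.046, against 0.0294, and 27.8% of them also held another cone opsin, against 11.7%. In 23 of the 36 there were at least 3 UMIs of each copy. The part of joined nuclei in these values was not tested.

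**Figure D2:**
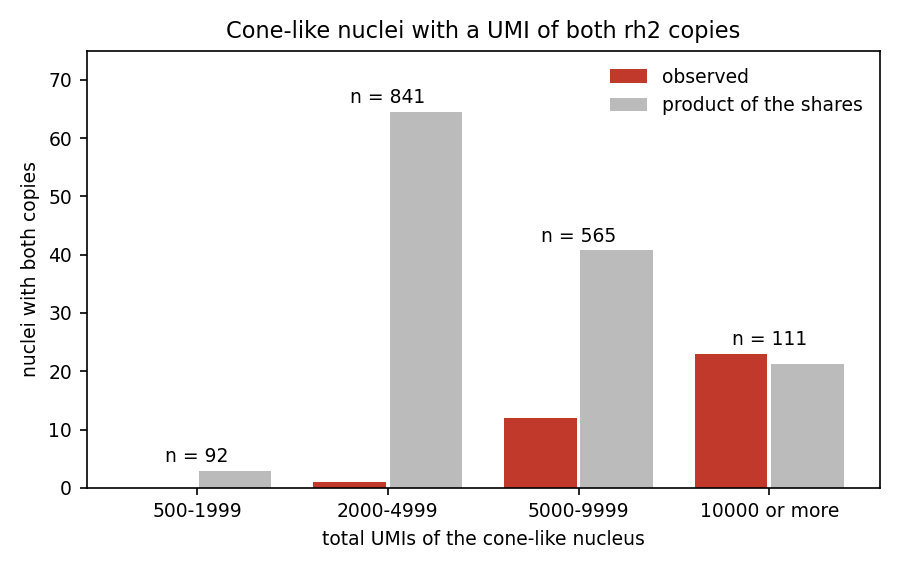
Number of cone-like nuclei holding a UMI of both copies (red) and the number given by the product of the shares (grey), by the total UMIs of the nucleus; n is the number of nuclei in the bin. Observed counts are 0, 1 and 12 in the first bins, below the grey bars, and 23 against 21.2 in the deepest bin.

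A cone with 2 or more UMIs of cone opsins was called dominant for the opsin that gave 80% or more of them. Both copies entered that rule, so the scarcity of the other copy in dominant cones is a description. By this rule 258 cones were copy A-dominant (133 in retina 1 and 125 in retina 2) and 452 were copy B-dominant (247 and 205). There were also 146 sws1-dominant, 150 sws2-dominant and 77 lws-dominant cones. Copy A cones held a median of 4 UMIs of their copy and at most 18. Copy B cones held a median of 7 and at most 31, with the same medians in retina 1 and retina 2. The other copy was found in 2 of the 258 copy A cones and in 6 of the 452 copy B cones. For comparison, copy A was found in 1 and copy B in 2 of the 146 sws1-dominant cones, and they were found in 2 and 3 of the 150 sws2-dominant cones. Neither was found in the 77 lws-dominant cones, which allows a share of up to 4.68% for each. A copy that was not the dominant opsin was thus seen in at most 2% of the cones of each of these 5 kinds. The 80% rule itself limits other opsins in all 5 kinds, so this share too is a description.

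Copy A cones made up 36.3% of all copy-dominant cones (32.8 to 40.0%), with 35% in retina 1 and 37.9% in retina 2. Their share was 31.0% in sublibrary 1 (26.2 to 36.2%), where the median cone-like nucleus held 3661 UMIs. It was 41.4% in sublibrary 2 (36.3 to 46.6%), where the median was 5619 UMIs. With each nucleus thinned to 2000 UMIs these shares were 26.2% (20.9 to 32.1%) and 32.3% (26.7 to 38.3%). The share of copy A cones was thus lower after thinning in each sublibrary. A gap between the sublibraries remained, with overlapping intervals, and the part of depth in it was not tested. The share is one of cones that passed the rule rather than of all cones that make the opsin.

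At resolution 1 the clustering, which left out all opsins, gave 4 cone-like clusters, and the copies sat mainly in 2 of them. One cluster of 611 nuclei held 414 of the 452 copy B cones together with 86 copy A cones and 6 lws-dominant cones. Another of 471 nuclei held 165 of the 258 copy A cones together with 68 of the 77 lws-dominant cones and 29 copy B cones. These are called the copy B cluster and the lws cluster below. The sws2 cluster of 324 nuclei held 6 copy A and 9 copy B cones, and the sws1 cluster of 203 nuclei held 1 copy A cone and no copy B cone. Copy A therefore took 17.2% of the copy-dominant cones of the copy B cluster (19.0% in retina 1, 14.9% in retina 2) and 85.1% of those of the lws cluster (82.4% and 87.4%).

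This grouping depended on the resolution. At resolution 2, 196 of the 258 copy A cones lay in a cluster of 341 nuclei with 20 copy B and 11 lws-dominant cones. Of the lws-dominant cones, 62 of 77 lay in another cluster of 259 nuclei, with 43 copy A and 36 copy B cones, and 384 of the 452 copy B cones lay in a separate cluster of 459 nuclei with 8 copy A cones. At resolution 0.5, 1 cluster of 1081 nuclei held 251 copy A, 443 copy B and 74 lws-dominant cones. Copy A cones were thus grouped with lws-dominant cones at resolution 1 and mostly apart from them at resolution 2.

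Exclusion held inside the copy B cluster, where 3 of 564 thinned nuclei held both copies against 62.2, a log2 odds ratio of -6.84. In the lws cluster 8 of 450 did, against 16.6, a log2 odds ratio of -1.54. There, retina 1 had 7 nuclei against 9.18 and retina 2 had 1 against 7.36, so the low count in the lws cluster came mainly from retina 2. At resolution 2 the clusters with most copy A, most lws-dominant and most copy B cones held 2, 3 and 6 thinned nuclei with both copies, against 11.2, 9.06 and 14.1.

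The position marks of the copies overlapped widely. VAX2 was found in 111 of 258 copy A cones, at 177 CPM in retina 1 and 200 CPM in retina 2. It was found in 137 of 452 copy B cones, at 136 and 167 CPM. Copy A cones were thus higher in each retina, by 0.32 on the log2 scale (0.08 to 0.57). The ratio was 0.37 in retina 1, and in retina 2 it was 0.26 with an interval of -0.07 to 0.60, which includes 0. Without the cone-like nuclei of at least 10000 UMIs the log2 ratio was 0.22 (-0.04 to 0.47). The sws1-dominant cones stood at 348 and 235 CPM of VAX2, the sws2-dominant cones at 137 and 121 CPM, and the lws-dominant cones held 1 UMI in each retina. Both copies thus lay in cones with a VAX2 level near that of blue cones or above it, and far above that of lws-dominant cones.

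**Figure D3:**
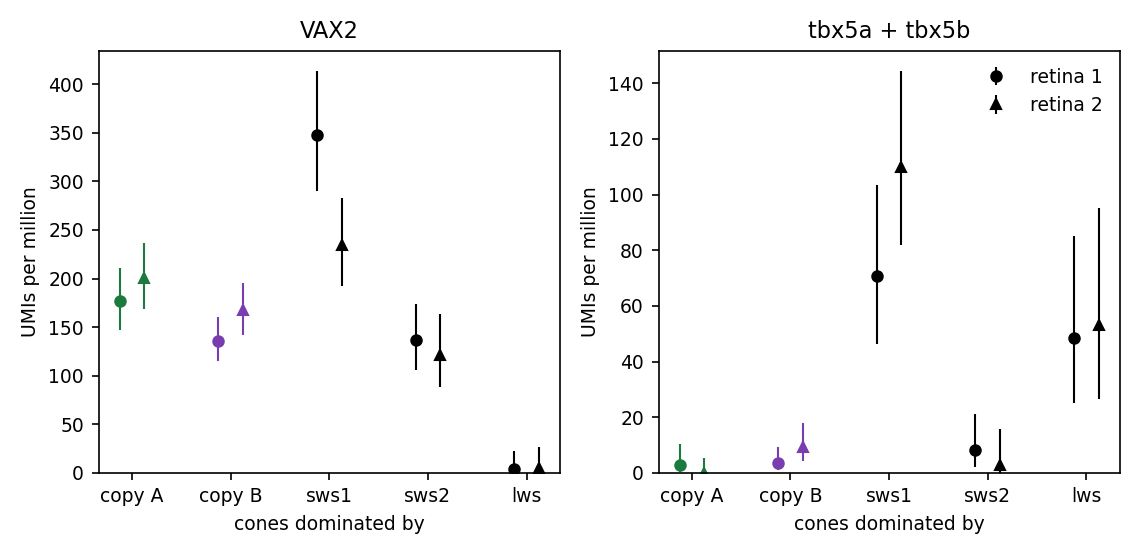
VAX2 (left) and tbx5a with tbx5b (right) in CPM in cones dominated by each rh2 copy, sws1, sws2 or lws; circles are retina 1, triangles retina 2, bars exact 95% counting intervals. Copy A and copy B cones lie between 136 and 200 for VAX2 and at 9.46 or below for tbx5, while lws-dominant cones lie at 4.05 and 4.84 for VAX2 and at 48.6 and 53.3 for tbx5.

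Transcripts of tbx5 were scarce in cones of either copy. Copy A cones held 1 UMI of tbx5a and 1 of tbx5b, both in retina 1, and copy B cones held 13 UMIs of tbx5b, of which 4 were in retina 1 and 9 in retina 2. The summed level was 1.41 CPM in copy A cones and 6.38 CPM in copy B cones, a log2 ratio of -2.18 (-5.37 to -0.03). In retina 1 it was -0.38 (-3.85 to 2.42), so the difference rested on retina 2, where copy A cones held no UMI. There were 92.5 CPM of tbx5b in sws1-dominant cones and 50.7 CPM in lws-dominant cones. VAX1 had no UMI in cones dominated by either copy. With nuclei thinned to 2000 UMIs, 2 and 4 UMIs of tbx5 were left and the log2 ratio was 0.27 (-3.20 to 3.07), so no direction is drawn for tbx5 over all cones.

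Within the lws cluster at resolution 1 the copies were also compared. VAX2 stood at 169 CPM in retina 1 and 213 CPM in retina 2 in the 165 copy A cones, and at 102 and 93.8 CPM in the 29 copy B cones. The log2 ratio was 0.97 (0.32 to 1.70), with 0.73 (-0.12 to 1.67) in retina 1 and 1.19 (0.10 to 2.53) in retina 2. The copy A cones of that cluster held 2 UMIs of tbx5, and its 29 copy B cones held 8, at 2.11 and 37.7 CPM. Retina 1 had 2 UMIs in each kind, so the tbx5 difference was seen in retina 2 alone, with 0 and 6. The 29 copy B cones also held 9 UMIs of opn1lw1 over its 3 rows, all in retina 1. The 165 copy A cones held 2, and the levels were 42.4 and 2.11 CPM. The dominance rule counts opn1lw1 UMIs and so limits them in both sets. Over all cone-like nuclei, copy A cones held a median of 4 UMIs of their copy and copy B cones 7. The rule thus leaves less room for opn1lw1 in copy A cones, and no difference in opn1lw1 is drawn. The part of lws opsin RNA or of joined nuclei in the values of this cluster was not tested. The 68 lws-dominant cones of the cluster held 57.5 CPM of tbx5b. In the copy B cluster the log2 ratio of VAX2 was 0.24 (-0.15 to 0.61), 0.54 in retina 1 and -0.19 in retina 2, so no common direction was seen there. In the lws cluster of resolution 2 the VAX2 ratio was 1.44 (0.70 to 2.22), on 43 copy A and 36 copy B cones, with 1.02 (-0.14 to 2.21) in retina 1 and 1.22 (0.17 to 2.44) in retina 2. In the copy A cluster of resolution 2 it was 1.35 (-0.03 to 3.24), on 4 UMIs in 20 copy B cones.

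Copy B cones of the lws cluster held 37.7 CPM of tbx5b against 2.87 CPM in the copy B cluster, on 8 and 5 UMIs, a log2 ratio of 3.72 (1.92 to 5.67). It was 2.73 (-1.06 to 6.51) in retina 1 and 4.48 (2.25 to 7.11) in retina 2. They also held 42.4 against 1.72 CPM of opn1lw1, on 9 and 3 UMIs. The dominance rule limits opn1lw1 UMIs in both sets, so this contrast is a description. VAX2 of the copy B cones was lower in the lws cluster, at 99.0 against 156 CPM, a log2 ratio of -0.66 (-1.37 to -0.02). Its intervals included 0 in each retina alone. Copy A cones held 194 CPM of VAX2 in the lws cluster and 184 CPM in the copy B cluster, a log2 ratio of 0.08 (-0.31 to 0.48).

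Sorting cones by their marks gave the reverse view. A cone with a UMI of tbx5 and none of a vax gene was called tbx5-marked (112 cones), and the opposite case vax-marked (497 cones). Copy A stood at 30.7 CPM in tbx5-marked cones of retina 1 and 21.8 CPM in those of retina 2, against 303 and 286 CPM in vax-marked cones. Its log2 ratio was -3.50 (-4.22 to -2.87), -3.30 in retina 1 and -3.71 in retina 2. Copy B stood at 134 and 167 CPM in tbx5-marked cones where vax-marked cones held 580 and 487 CPM. Its log2 ratio was -1.81 (-2.09 to -1.54), -2.12 in retina 1 and -1.54 in retina 2. Pooled over all cone-like nuclei, both copies were lower in tbx5-marked cones in each retina. Over both retinas, and in retina 2, the interval of copy A lay wholly below that of copy B. In retina 1 the intervals overlapped, at -4.32 to -2.45 for copy A and -2.57 to -1.69 for copy B. In tbx5-marked cones the UMIs came from 8 cones for copy A and 16 for copy B. Spread between cones is not in these intervals. The marked sets also differed in cone kind. The sws1 cluster held 37 tbx5-marked and 73 vax-marked cones, and the copy B cluster 10 and 193. Within the sws1 cluster copy A had 2 and 3 UMIs, and the log2 ratio of copy B was 0.15 (-1.15 to 1.43). Within the sws2 cluster copy B gave -0.54 (-1.57 to 0.34), and copy A at most -1.71, with no UMI in 9 tbx5-marked cones. The part of cone kind in the pooled ratios was not tested. In cones with neither mark, 984 in number, copy A stood at 163 CPM and copy B at 570 CPM.

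A fall of copy A was also seen inside the lws cluster. There the 56 tbx5-marked cones held 41.5 CPM and the 126 vax-marked cones 614 CPM. The log2 ratio was -3.88 (-4.77 to -3.13). It was -3.61 in retina 1 and -4.27 in retina 2. In the lws cluster of resolution 2 it was -2.92 (-3.74 to -2.19), with -3.36 in retina 1 and -2.53 in retina 2. Copy A was found in 101 of the 126 vax-marked cones of that cluster, and in 5 of the 56 tbx5-marked cones. Copy B in the same cones gave -0.76 (-1.26 to -0.29), made up of -1.35 for retina 1 and 0.09 for retina 2, so its direction was not shared. In the lws cluster of resolution 2 copy B was lower in each retina, at -1.80 and -1.47. In the copy A cluster of resolution 2 copy B was higher in tbx5-marked cones, at 141 against 56.4 CPM. That log2 ratio was 1.32 (0.01 to 2.45), on 8 UMIs in 11 tbx5-marked cones. How many of the 11 cones held these UMIs was not counted. Copy B-dominant cones held a median of 7 UMIs of copy B each, so no direction is drawn there. In the copy B cluster copy B stood at 666 CPM in only 10 tbx5-marked cones. The 193 vax-marked cones there held 1293 CPM, a log2 ratio of -0.96 (-1.40 to -0.55). Copy A gave -2.12 (-4.01 to -0.74) in that cluster, on 4 UMIs in 1 of the 10 tbx5-marked cones. Its ratio was -0.84 (-2.75 to 0.57) in retina 2 and at most -1.75 in retina 1. The lws cluster at resolution 1 held 165 copy A and 68 lws-dominant cones, so its marked sets can differ in cone kind. The part of cone kind in these ratios was not tested.

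Counted by cone, 42.6% of copy A cones were vax-marked (36.5 to 48.9%) and 1 of 258 was tbx5-marked. Of the copy B cones, 30.3% were vax-marked (26.1 to 34.8%) and 11 of 452 were tbx5-marked. A mark needs only 1 UMI, so these shares depend on depth. The median was 4902.5 UMIs in copy A cones and 4050 in copy B cones, and the part of depth in the shares was not tested. Of the lws-dominant cones, 2 of 77 were vax-marked and 15 tbx5-marked. Neither mark was found in 56.6% of copy A cones and 67.3% of copy B cones, whose position was therefore not read.

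Copy A and copy B cones differed in many other transcripts. Over 8581 genes with at least 20 UMIs in these cones, opsins left out, 675 (7.87%) had a log2 ratio of at least 1 in size with the same sign in each retina. Of these, 240 (2.8%) were higher in copy A cones and 435 (5.07%) in copy B cones. The median log2 ratio of all tested genes was -0.01. The rule sets no limit on counting error. In simulated counts for these cones, drawn with counting error alone, 2.22% of unchanged genes passed it. Within the lws cluster 764 of 5740 genes (13.3%) passed the same rule, 8.75% towards copy A and 4.56% towards copy B. Within the copy B cluster 952 of 7470 (12.7%) did, 3.44% towards copy A and 9.3% towards copy B, on smaller sets of cones with larger counting error. In each cluster the larger share lay towards the larger set of cones. No simulation was made within clusters, and the part of counting error in these shares was not tested.

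Among the 10 genes with the largest ratios towards copy A was THRB, the thyroid hormone receptor that directs long-wave cone identity in mouse and zebrafish. It stood at 557 CPM in retina 1 and 546 CPM in retina 2 in copy A cones, and at 34.1 and 28.4 CPM in copy B cones. The values of the copies did not overlap, and the log2 ratio was 4.13 (3.77 to 4.53). THRB was found in 227 of 258 copy A cones and 28 of 452 copy B cones. In lws-dominant cones it stood at 611 CPM, and in sws1-dominant and sws2-dominant cones at 13.2 and 11.96 CPM. The 86 copy A cones of the copy B cluster held 549 CPM of THRB, near the 564 CPM of copy A cones in the lws cluster. Copy B cones held 17.8 CPM in the copy B cluster and 156 CPM in the lws cluster. THRB was therefore higher with copy A in either cluster, with log2 ratios of 4.95 and 1.86.

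The gene hs6st3a, a heparan sulfate 6-O-sulfotransferase, followed the same pattern over cones, with 401 and 415 CPM in copy A cones, 25.8 and 24.2 CPM in copy B cones and 554 CPM in lws-dominant cones. SLC9A9, a sodium-proton exchanger of endosomes, stood at 102 and 70.6 CPM in copy A cones, 5.52 and 5.26 CPM in copy B cones and 126 CPM in lws-dominant cones. LPCAT1, which remodels phosphatidylcholine and is needed for photoreceptor survival in mouse, stood at 170 and 96.0 CPM in copy A cones and 6.44 and 2.10 CPM in copy B cones. Its level in lws-dominant cones was 6.62 CPM, so LPCAT1 was not shared with them. TACR3, a tachykinin receptor, was likewise at 48.7 CPM in copy A cones, 3.43 CPM in copy B cones and 2.21 CPM in lws-dominant cones. The remaining genes of this side were sh3bp5b (log2 ratio 5.08), ano5a (4.33), tp53i11b (4.05), RBM47 (3.98, 2.31 to 6.33) and NET1, which rested on 32 UMIs against 1 (5.53, 2.94 to 10.87).

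Towards copy B, FIBCD1 encodes a chitin-binding membrane receptor in human. It stood at 1876 CPM in retina 1 and 1917 CPM in retina 2 in copy B cones. In copy A cones it stood at 2.83 and 42.4 CPM, on 2 and 30 UMIs in 7 cones, so that the retina names differed there while both lay far below copy B cones. The log2 ratio was -6.39 (-6.94 to -5.89). FIBCD1 was found in 426 of 452 copy B cones, and stood at 21.6 CPM in sws1-dominant, 10.8 CPM in sws2-dominant and 0 CPM in lws-dominant cones. Copy B cones kept a high FIBCD1 in the lws cluster (1555 CPM, against 30.6 CPM in its copy A cones) and in the copy B cluster (1951 against 4.84 CPM).

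Other genes of this side were shared with short-wave cones. NTF3, the secreted neurotrophin-3, stood at 935 and 864 CPM in copy B cones and 45.2 and 22.6 CPM in copy A cones, with 788 CPM in sws1-dominant, 855 CPM in sws2-dominant and 30.9 CPM in lws-dominant cones. TMEM132E, a membrane protein needed for hearing in human, stood at 787 CPM in copy B cones, 11.3 CPM in copy A cones, 716 CPM in sws1-dominant and 377 CPM in sws2-dominant cones. TMEM91 stood at 314 and 1.41 CPM in copy B and copy A cones, with 281 and 206 CPM in sws1-dominant and sws2-dominant cones. Its ratio of -7.80 (-10.85 to -5.94) rested on 2 UMIs in copy A cones. SDF2L1, an endoplasmic reticulum protein, had a log2 ratio of -3.93 (-6.25 to -2.32) on 3 UMIs there, and ttyh2l of -3.91. PTPRT, a receptor tyrosine phosphatase of synapses, stood at 450 CPM in copy B cones and 26.1 CPM in copy A cones, and was also found in lws-dominant cones at 214 CPM. ENSABLG00000020285 had 70 UMIs in copy B cones and none in copy A cones, a log2 ratio of at most -4.02 with the empty side set to 3 UMIs. ENSABLG00000002711 (-5.10, -8.17 to -3.21) and ARHGEF25 (-5.41, -10.73 to -2.87), on 2 and 1 UMIs in copy A cones, complete the list.

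**Figure D4:**
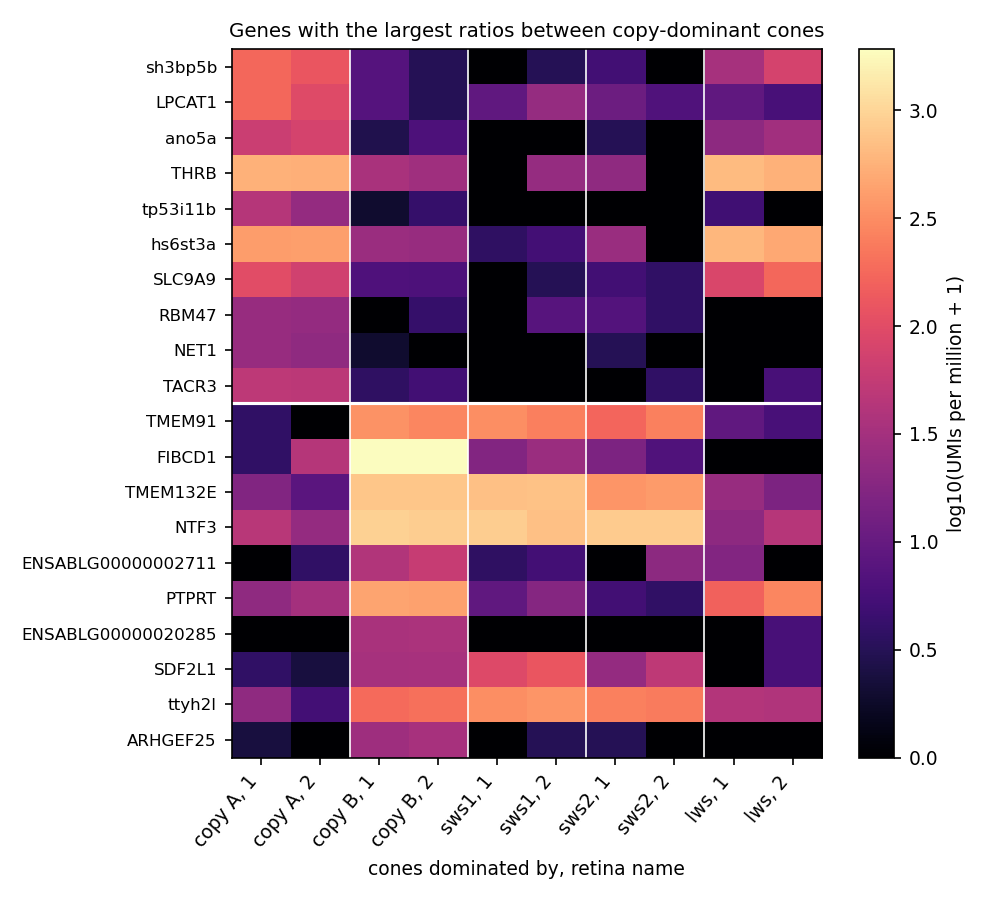
Levels, as log10 of CPM plus 1, of the 10 genes with the largest ratios towards copy A (above the white line) and towards copy B (below it), in cones dominated by each opsin and in each retina name (1 or 2). THRB, hs6st3a and SLC9A9 are high in copy A and lws cones, NTF3, TMEM132E and TMEM91 in copy B, sws1 and sws2 cones, and FIBCD1 in copy B cones.

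Of 15 tested regulators of photoreceptor identity, 3 passed the rule towards copy A and 3 towards copy B, and the list median was -0.07. Over all tested genes 2.8% passed towards copy A and 5.07% towards copy B. With THRB, the retinoid X receptor rxrgb stood at 363 and 388 CPM in copy A cones against 144 and 130 CPM in copy B cones (log2 ratio 1.45). SAMD7, a Polycomb-associated repressor of photoreceptors in mouse, stood at 1061 and 998 CPM against 375 and 384 CPM (1.44), and at 1083 CPM in lws-dominant cones. Its relative SAMD11 went the other way, at 12.7 and 8.47 CPM in copy A cones against 113 and 72.5 CPM in copy B cones (-3.15). RORB, a nuclear receptor needed for rod and cone development in mouse, had a ratio of -1.31 and the homeobox gene rx1 of -2.06, the latter on 6 and 36 UMIs. In retina 2 the ratio of rx1 was -0.69, and in retina 1 copy A cones held no UMI of it. The six7 gene, on which rh2 opsin expression depends in zebrafish, had a log2 ratio of 0.09, at 186 and 252 UMIs in copy A and copy B cones.

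Of 13 tested dorsoventral genes, 2 passed towards copy A and 5 towards copy B, with a list median of -0.31. The shares over all tested genes were 2.8% and 5.07%. TBX2, a T-box factor of the dorsal retina in vertebrates, stood at 35.3 and 59.3 CPM in copy A cones against 11.96 and 7.36 CPM in copy B cones (log2 ratio 2.27), and at 210 CPM in lws-dominant cones. Within the lws cluster the direction turned, with 44.4 CPM in copy A cones and 75.4 CPM in copy B cones (-0.77), while in the copy B cluster it was 50.8 against 2.29 CPM (4.47). Its relative tbx2b was at 6.36 and 14.7 CPM in copy A and copy B cones (-1.21), and at 639 and 490 CPM in sws1-dominant and sws2-dominant cones. Its ratio was -0.23 in retina 1 and -1.97 in retina 2, and of the 30 UMIs in copy B cones 2 lay in the copy B cluster and 0 in the lws cluster. The receptor ephb2b, a ventral guidance gene in vertebrate retina, was higher with copy A (164 and 145 CPM against 30.4 and 59.9 CPM), while ephb2a was lower over both retinas (5.65 against 13.2 CPM), by -1.63 in retina 1 and -0.57 in retina 2 on the log2 scale. The ligand efnb2a with identifier ENSABLG00000016818 is of a family high in dorsal retina. It stood at 91.8 and 97.4 CPM in copy A cones against 235 and 208 CPM in copy B cones. The other efnb2a, ENSABLG00000001777, did not pass, at -0.31 (-1.37 to 0.69), with -2.47 in retina 1 and 1.01 in retina 2. Both genes named NR2F2, a nuclear receptor, were lower with copy A, on 3 and 2 UMIs in copy A cones. Their log2 ratios were -3.75 (-6.07 to -2.13) for ENSABLG00000012161 and -3.06 (-6.19 to -1.05) for ENSABLG00000013741. The called genes of the list thus lay on both sides, and the side of TBX2 depended on the cluster.

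Of 25 tested cone phototransduction genes, 1 passed towards copy A and 4 towards copy B, with a list median of -0.05. The shares over all tested genes were 2.8% and 5.07%. The recoverin rcvrn2, a calcium sensor of the photoresponse, stood at 38.1 and 35.3 CPM in copy A cones against 214 and 250 CPM in copy B cones (log2 ratio -2.65), with 260 to 465 CPM in cones of the other opsins. The cyclic nucleotide-gated channel subunit cngb3.2 stood at 119 and 133 CPM against 675 and 682 CPM (-2.43), with 526 to 1359 CPM in the other cones. The guanylate cyclase activators GUCA1A (-1.54) and guca1g with identifier ENSABLG00000003644 (-1.64) were lower in copy A cones, and the other guca1g, ENSABLG00000003643, was higher (1.30). For GUCA1A the ratio was -0.84 in retina 1 and -3.22 in retina 2, and for the higher guca1g 0.79 and 1.75, so in retina 1 alone both lay under the size of 1. Core genes differed less, with log2 ratios of -0.38 for the transducin GNAT2, -0.05 for the phosphodiesterase PDE6C and 0.66 for the arrestin arr3a.

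Outside cones the copies were nearly absent from rods. Rod-like nuclei held 4 UMIs of copy A, 2 in each retina, over 1503 nuclei, and 12 UMIs of copy B, 4 in retina 1 and 8 in retina 2. Each was a lone UMI in its nucleus. The levels of 1.35 and 4.06 CPM gave log2 ratios to cone-like nuclei of -7.18 (-9.06 to -5.82) for copy A and -6.97 (-7.93 to -6.17) for copy B. The share of rod-like nuclei with a UMI was 0.266% for copy A and 0.798% for copy B, at a median of 1614 UMIs. Cone markers in these nuclei stood at 510 CPM, against 9154 CPM in cone-like nuclei.

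**Figure D5:**
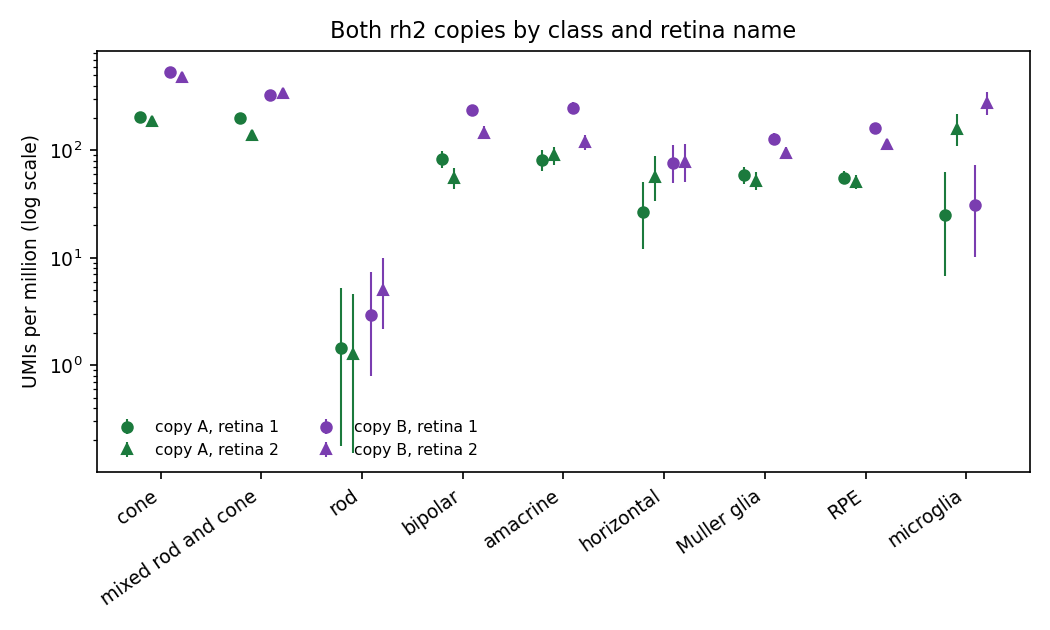
Level of copy A (green) and copy B (purple) in CPM on a log axis, by class of nucleus; circles are retina 1, triangles retina 2, bars exact 95% counting intervals, and RPE is retinal pigment epithelium. For each copy the rod-like nuclei lie lowest, between 1.27 and 5.06 over both copies. Copy A in cone-like nuclei lies at 205 and 187, copy B at 539 and 480, above the same copy in each other class of the same retina.

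In the other classes both copies were found at levels between those of rods and cones. Copy A stood at 68.9 CPM in bipolar-like, 86.0 CPM in amacrine-like, 41.1 CPM in horizontal-like, 55.5 CPM in Müller glia-like and 53.3 CPM in pigment epithelium-like nuclei. Copy B stood at 193, 176, 77.6, 111 and 138 CPM in the same classes. Barcodes under 100 UMIs, too shallow to be taken as nuclei, stood at 68.9 CPM of copy A and 181 CPM of copy B. The UMIs were not spread evenly. In bipolar-like nuclei copy A was found in 46 of 352 nuclei, with a median of 4 UMIs each, and copy B in 61, with a median of 8. These are close to the medians of 4 and 7 in cones dominated by each copy.

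In the bipolar-like, amacrine-like, horizontal-like, Müller glia-like and pigment epithelium-like classes, carriers of either copy were deeper than their class by median UMIs. Their median doublet scores were above those of nuclei without the copy, and most held a cone marker UMI. Bipolar-like carriers of copy B had a median of 13836 UMIs, against 5189 for the class, and a doublet score of 0.107 against 0.0637 in nuclei without the copy. Among bipolar-like nuclei with no cone marker UMI, 96 in number, copy A was found in 1 and copy B in none. In the 192 Müller glia-like nuclei with no cone marker UMI, copy A was found in 2 and copy B in 3. None of the 153 pigment epithelium-like nuclei with no cone marker UMI held either copy. The part of free RNA and of joined nuclei in the values of these classes was not tested.

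The share of rh2 UMIs given by copy B was compared between classes, and does not rank the copies, since transcript lengths were not given. Over both retina names copy B gave the larger part of the counted rh2 UMIs in each class. It gave 72.2% of the rh2 UMIs of cone-like nuclei (71.1 to 73.4%), 72.4% of those of barcodes under 100 UMIs (68.9 to 75.7%), 73.7% in bipolar-like and 72.1% in pigment epithelium-like nuclei. The share was lower in amacrine-like (67.1%), Müller glia-like (66.6%) and mixed rod and cone nuclei (66.9%), whose upper bounds of 70.9, 70.0 and 68.9% lay under the cone value. It was also lower in horizontal-like (65.4%), microglia-like (63.1%) and ltk pigment cell-like nuclei (67.4%), with intervals that included the cone value or came within 1 point of it. In amacrine-like nuclei this share was 75.2% in retina 1 and 56.9% in retina 2. These intervals take each UMI as independent. Yet the amacrine-like UMIs came from 42 nuclei with copy A and 43 with copy B, and the Müller glia-like UMIs from 47 and 60. Spread between nuclei is not in the bounds, so no difference from cones is drawn from them. Per 1000 cone marker UMIs there were 21.4 UMIs of copy A in cone-like nuclei and 17.8 to 24.5 in bipolar-like, amacrine-like, Müller glia-like and pigment epithelium-like nuclei, with 15.9 in horizontal-like and 2.65 in rod-like nuclei. For copy B there were 55.8 in cone-like nuclei, a lower 42.4 to 50.1 in the same 4 classes, 30.1 in horizontal-like and 7.96 in rod-like nuclei.

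Among the other classes, nuclei with at least 5 rh2 UMIs carried 1 copy alone in 66.0% of 459 cases (61.5 to 70.3%), at a median of 23830 UMIs, against 93.4% in cones at 5042 UMIs. A further 406 nuclei fell in clusters with both rod and cone markers, at a median of 8811 UMIs and a doublet score of 0.115. Copy A stood at 199 CPM in retina 1 and 138 CPM in retina 2 in these, and copy B at 325 and 344 CPM. Of those with at least 5 rh2 UMIs, 82.4% of 170 carried 1 copy alone, and after thinning 7 nuclei held both copies against 22.1, a log2 odds ratio of -2.23.

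Over 24 points, the named classes and cone clusters in each retina, the 2 copies had a Pearson correlation of log2(CPM + 1) of 0.763. The genes with the most similar pattern to copy A were si:dkey-72l14.3 (0.952), jam2a (0.949), arr3a (0.945), si:dkey-30k22.7 (0.938) and ablim1a (0.935). For copy B they were FIBCD1 (0.948), myzap (0.920), CIB2 (0.918), si:ch73-281f12.4 (0.915) and LSAMP (0.892). FIBCD1 alone of these was also among the named genes that set copy B cones apart from copy A cones. Between the copy B and lws clusters the genes listed here did not all move with their copy. Copy A stood at 182 and 129 CPM in the first and 379 and 420 CPM in the second. There si:dkey-72l14.3 rose from 510 and 429 to 1243 and 1241 CPM, and jam2a went from 1265 and 1252 to 1206 and 1195 CPM. Copy B went from 1308 and 1399 to 251 and 103 CPM. FIBCD1 went from 1348 and 1486 to 199 and 210 CPM, and LSAMP from 8292 and 8332 to 7910 and 7393 CPM. The points share libraries and differ in depth, and the values are descriptive.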

How the data were processed

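Nuclei were barcoded in combinatorial rounds and sequenced, per the labels' protocols. The sources used here name no aligner, genome build, annotation or barcode filter. Raw UMI counts make up the deposited matrix of 119839 barcodes, and all barcode sums equal those of the deposited barcode table. A deposited table that gives totals per barcode for 5 sample names, with no genes, was not used.

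Nuclei were clustered with scanpy 1.11.5 and leidenalg 0.10.2 (2485 variable genes without opsins and dorsoventral genes, 40 components, 15 neighbours, resolution 1). A cluster was named with at least 3 markers at a fold of at least 2 in at least 10% of its nuclei. A lens-led cluster was left unnamed after its genes were seen. Doublets were kept, since the caller's limits marked 0% of nuclei.

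Genes named were those called on the 3 gene lists, the 10 per side with the largest log2 ratios (counts under 3 set to 3) and the 5 most alike each copy. In simulated data for copy A over copy B cones, run on 8586 genes with known folds, 100% of 8-fold changes and 2.22% of unchanged genes were called. The changed genes were drawn from those with at least 100 expected UMIs, so the recovery does not cover genes of lower count. Counts were drawn from a profile shared by all these cones with counting error alone. Spread between nuclei or retinas is therefore not in the 2.22%. Members and lists were chosen with earlier results of these data known. Alternatives covered depth, doublet scores, resolution, retina names, sublibraries, class rule, dominance, thinning and gene filters.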

Additional observations from a re-analysis of the deposited data

Results flagged for a closer look

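In the copy B cluster the log2 ratio of VAX2 between copy A and copy B cones had opposite signs in the retina names, 0.54 in retina 1 and -0.19 in retina 2. In the lws cluster the log2 ratio of copy B between tbx5-marked and vax-marked cones did so too, at -1.35 in retina 1 and 0.09 in retina 2. Neither difference between the retina names was tested.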

How the results depend on the processing

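Of 94 values of 7 results under alternatives, 12 moved and 1 reversed. A value moved if it left the main interval or, for the count of called genes, changed by more than a set factor. Ratios on too few UMIs, or with an empty side and a bound towards the other sign, are not among the 94. The tbx5 ratio was 0.27 on 2 and 4 UMIs when nuclei were thinned to 2000 UMIs, against -2.18, so it rests on few UMIs. The log2 odds ratio of co-detection was -2.78 without thinning, -1.54 within the lws cluster and -6.84 within the copy B cluster, and ranged from -5.66 to -3.04 when a retina name or sublibrary was left out. The share of copy A among copy-dominant cones ranged from 31.0 to 41.4% on leaving one out, and was 32.3% with dominance at 3 UMIs and 95%, and 29.3% after thinning. The VAX2 ratio was 0.97 within the lws cluster and 0.26 to 0.37 on leaving one out, and the tbx5 ratio was -1.76 without sublibrary 1, -0.38 without retina 2 and at most -1.16 without retina 1. The count of called genes was 1091, 321 and 1653 with at least 10, 50 and 1 UMIs, and 644 to 658 on leaving one out. The ratios of rod-like to cone-like nuclei ranged from -7.50 to -5.84 for copy A, the latter with classes set by marker UMIs per nucleus, and from -7.53 to -6.57 for copy B. The cause of these moves was not tested.

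Of 297 values for the 20 named genes, all kept their sign and 74 left the main interval. The genes were chosen with the same sign in each retina, so leaving out a retina could not reverse them. Values with too few UMIs, or with an empty side and a bound towards the other sign, are not among these. The shared sign was thus partly fixed by how the genes and values were taken. The alternatives within the copy B cluster, without deep cone-like nuclei, with cone clusters of other resolutions, averaged over draws and the doublet limit (highest 10% of scores) were chosen after seeing the data. Without sublibrary 2, no tbx5 ratio is given, because the counts were too low. The comparison was made within each retina name, with no test, in place of a paired fit.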
